A study of Mus musculus with 6 samples.

Results

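The subject is a set of 26 mature entries of 14 mouse miRNA genes that miRBase lists as miRNAs. They are the entries of Mir468, Mir706, Mir6412, Mir7210, Mir7214, Mir7216, Mir7217, Mir7218, Mir7221, Mir7222, Mir7229, Mir7230, Mir7233 and Mir7234, counted under any arm name, out of 1900 miRNA entries and 45932 entries of the small RNA table. The 14 genes were chosen by the counts of their entries, which were lower in Miwi knockout (KO) than in wild-type (WT) libraries, or by the position of the gene in a piRNA cluster. The levels in KO against WT therefore chose part of the set, and they are given below as a description. The members' edgeR changes and their numbers past a threshold are a description too and do not test the set. miR-468-5p, miR-6412, miR-706, miR-7210-3p and miR-7229-3p are listed by name in the choice.

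Round spermatids, the haploid cells that follow meiosis, were purified from testes, and their small RNAs were sequenced in 3 Miwi KO and 3 WT libraries. All libraries came from C57BL/6 mice at postnatal day 21, and the KO allele is present in every cell of the animal. Miwi (Piwil1) encodes a PIWI protein of late meiotic and haploid male germ cells. The Miwi mRNA was not analysed here, since small RNAs were counted, so the genotype was not checked on the gene itself. The labels do not say that each library is a separate animal, so the spread between libraries may be technical.

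A miRNA is cut from a short hairpin by DROSHA and DICER and guides an Argonaute protein through its seed. A pachytene piRNA is instead cut from a long single-stranded transcript of a genomic cluster, needs no hairpin, often begins with U, and is carried by MILI or MIWI. The RNAs on MIWI are longer than those on MILI, and both are longer than a miRNA. A sequence entered in a miRNA database may therefore be read from a piRNA precursor. Length and 5′ end are the features compared here, and neither alone assigns a sequence to a class.

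Mature sequences matched 23 of the 26 entries in RefSeq (GRCm38.p6), each with the length deposited for the entry. The 5 entries listed by name, and miR-7210-5p from the other arm of the miR-7210-3p hairpin, are shown with the seed, bases 2 to 8, in capitals.
mmu-miR-468-5p: gACUGAUGuacugauaagaaacucagu
mmu-miR-6412: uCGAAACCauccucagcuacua
mmu-miR-7210-3p: uUAUAUGUaaguaacaauguggcu
mmu-miR-7210-5p: uAACAUUGuagacaggcacaaag
mmu-miR-7229-3p: uACACAGAccagugacuuucugca
mmu-miR-706: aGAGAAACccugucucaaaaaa
Of the entries with higher KO levels, 3 from Mir7217 and Mir7218, neighbours on chromosome 17, are shown in the same way.
mmu-miR-7217-3p: uGAGAACCcacaagcaagaaga
mmu-miR-7217-5p: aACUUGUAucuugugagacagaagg
mmu-miR-7218-5p: uGCAGGGUuuaguguagaggg
The 23 sequences held 23 different seeds, so no members formed a seed family.

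Members ranged from 19 to 27 nt. Lengths of 24 nt or more were found in 8 of the 26 members (30.8%) and in 139 of the 1874 other miRNA entries (7.42%). A length of 27 nt occurred in 2 members, miR-468-5p and miR-7222-5p, and in 1 other miRNA. U was the first base of 14 of the 23 matched members (60.9%) and of 639 of 1595 other miRNAs (40.1%). A at base 10 was found in 4 of 23 members (17.4%) and in 322 of 1595 other miRNAs (20.2%). These shares describe the entries as named and use no counts.

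Of the 14 genes, 12 lie inside 7 clusters of the piRNA table, at GRCm38 positions. Mir468 is at chr6:81896599-81896676 on the minus strand and overlaps no other annotated gene, and Mir7210 is at chr14:24088877-24088930 on the plus strand, also outside other genes. Mir7229 and Mir7230 lie in a cluster of chromosome 5, and the Mir7229 gene at chr5:113324493-113324545 is antisense to an exon of Gm43353. Mir7221 and Mir7222 share a cluster of chromosome 2. Mir7214, Mir7216, Mir7217 and Mir7218 share a cluster of chromosome 17, where Mir7217 and Mir7218 lie in exons of the lincRNA Gm49794 and the other pair in introns of Gm49793 and Gm10505. Mir7233 lies in a second cluster of chromosome 6, and Mir7234 lies in an exon of the lincRNA Gm21269 on chromosome 7. Reads of a hairpin cannot be told apart from reads of the gene that contains it.

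Mir706 and Mir6412 lie in no cluster. Mir706, at chr6:120034228-120034311 on the minus strand, is in an intron of Wnk1, and Mir6412, at chr10:122648339-122648435 on the plus strand, overlaps no other gene. The letters of miR-706 also occur at the end of B1 elements, a family of short interspersed repeats. They were found, on either strand, in transcripts of 0.815% of 55341 genes, of 209 genes on the transcript strand and of 249 on the opposite strand, and in 2 of 32851 promoters. Every other matched member was found in transcripts of 1 or 2 genes, its own included. Counts of miR-706 may thus come from many places, and its values are uncertain.

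Totals of the small RNA table lay between 747443 and 1335013 in KO libraries, against 3114845 to 5037232 in WT libraries. Levels were set against the other miRNAs, whose counts were 232353, 145198 and 240837 in the KO libraries, against 168027, 185367 and 230373 in the WT libraries. The replicate 3 library of each genotype was richer in snoRNA, with 3.12 counts per 100 other miRNA counts in KO replicate 3 and 9.43 in WT replicate 3, against at most 0.947 in the other KO and 3.52 in the other WT libraries. Markers of meiotic and haploid germ cells (7 miRNAs, the miR-34 and miR-449 families among them) summed to between 31826 and 35922 per 100000 other miRNA counts in KO and between 30458 and 32282 in WT. Peritubular markers (2 of 2 detected) summed to between 1457 and 1936 in KO and between 2138 and 3148 in WT. Endothelial markers (2 of 2) summed to between 812 and 879 in KO and between 892 and 911 in WT, and erythroid markers (2 of 2) to between 3.74 and 4.82 in KO and between 8.33 and 12.9 in WT. Sertoli and gonadal markers overlapped, at 173 to 227 in KO and 201 to 252 in WT. So did leukocyte markers, at 180 to 208 in KO and 155 to 206 in WT, and spermatogonial markers, at 656 to 845 and 763 to 924. Their part in the results was not tested, and in these bulk samples fewer cells of a type and less RNA per cell cannot be told apart.

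The 26 entries together took 1.02%, 0.880% and 1.16% of miRNA counts in the KO libraries, against 6.53%, 5.44% and 6.36% in the WT libraries. Per 100000 counts of the other miRNAs they summed to 1028, 888 and 1170 in KO and to 6983, 5751 and 6796 in WT. No KO library came near the lowest WT library. Nearly all of this gap was miR-468-5p, which made up 43.9%, 42.0% and 47.8% of the members' counts in KO and 92.1%, 89.4% and 89.6% in WT. Without it the members summed to 577, 515 and 610 per 100000 in KO and to 552, 609 and 710 in WT, ranges that overlap.

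miR-468-5p, the 27 nt entry from the 5′ side of Mir468, had 1049, 541 and 1348 counts in KO libraries, against 10806, 9532 and 14022 in WT libraries. Per 100000 other miRNA counts these lay between 373 and 560 in KO and between 5142 and 6431 in WT. The KO mean of 461 ± 93.9 was 12.8-fold lower than the WT mean of 5887 ± 667 (SD, n = 3 each). In WT its level lay below that of miR-16-5p, an abundant miRNA of many tissues, with no overlap. miR-16-5p lay between 5930 and 7599 in KO and between 7152 and 7873 in WT. The other entry of the hairpin, miR-468-3p, had 51.9 ± 8.25 in KO and 53.9 ± 8.39 in WT, so the arms of Mir468 differed in how their levels stood between genotypes.

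miR-6412 had 4.30, 8.26 and 5.40 per 100000 in KO and 53.0, 85.2 and 56.0 in WT, from 35 counts over the KO libraries and 376 over the WT libraries. Its KO mean was 10.8-fold lower, with no overlap. miR-7210-3p was a sparse entry, with 4, 4 and 5 counts in KO, against 25, 25 and 44 in WT, and its mean level was 2.18 ± 0.525 in KO and 15.8 ± 2.92 in WT, 7.24-fold lower in KO. The opposite arm, miR-7210-5p, had 157, 62 and 140 counts in KO, against 109, 75 and 151 in WT, and its levels of 56.1 ± 12.6 in KO and 57.0 ± 14.3 in WT overlapped.

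miR-7229-3p had 21.5, 14.5 and 25.3 per 100000 in KO and 80.9, 90.1 and 92.9 in WT, a mean 4.30-fold lower in KO. miR-7229-5p, from the same hairpin, had 5.00 ± 2.57 in KO and 7.65 ± 3.63 in WT, with overlap. miR-706 had 58, 32 and 47 counts in KO, against 91, 139 and 232 in WT, and a level of 22.2 ± 2.73 in KO and 76.6 ± 23.3 in WT, 3.46-fold lower in KO, a direction that turns when the whole small RNA table sets the scale. The WT libraries of miR-706 were spread more widely than its KO libraries.

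Of the other 12 entries that passed the count filter, 5 had every KO library above every WT library. miR-7218-5p had 11.6, 13.1 and 10.8 per 100000 in KO and 1.79, 3.78 and 1.74 in WT, from 72 counts in KO and 14 in WT, and its mean was 4.86 times the WT mean. miR-7217-3p, the second most counted member in WT, had 184, 160 and 252 in KO and 97.6, 92.2 and 136 in WT, 1.83 times higher in KO. miR-7217-5p was 2.14 times, miR-7218-3p 1.63 times and miR-7214-5p 1.21 times higher in KO. All 5 belong to genes of the chromosome 17 cluster. miR-7230-5p had 9.09 ± 0.720 in KO and 14.0 ± 2.59 in WT with no overlap, a direction that also turns on that scale, and the other 6 overlapped. Of those not yet given, miR-7234-5p had 14.7 ± 2.06 in KO and 13.4 ± 5.65 in WT, miR-7230-3p had 6.50 ± 1.46 in KO and 9.24 ± 1.78 in WT, and miR-7222-3p had 4.39 ± 0.826 in KO and 2.65 ± 0.845 in WT. The miRNAs that are typical of meiotic and haploid germ cells give the scale of other miRNAs in these libraries. miR-34c-5p had 8216 ± 287 in KO and 7138 ± 298 in WT, and miR-449a-5p had 2689 ± 232 in KO and 2087 ± 282 in WT. miR-34b-5p, the most counted miRNA, had 21176 ± 1948 in KO and 20879 ± 699 in WT, and miR-34b-3p had 1300 ± 295 in KO and 936 ± 165 in WT.

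**Figure D1:**
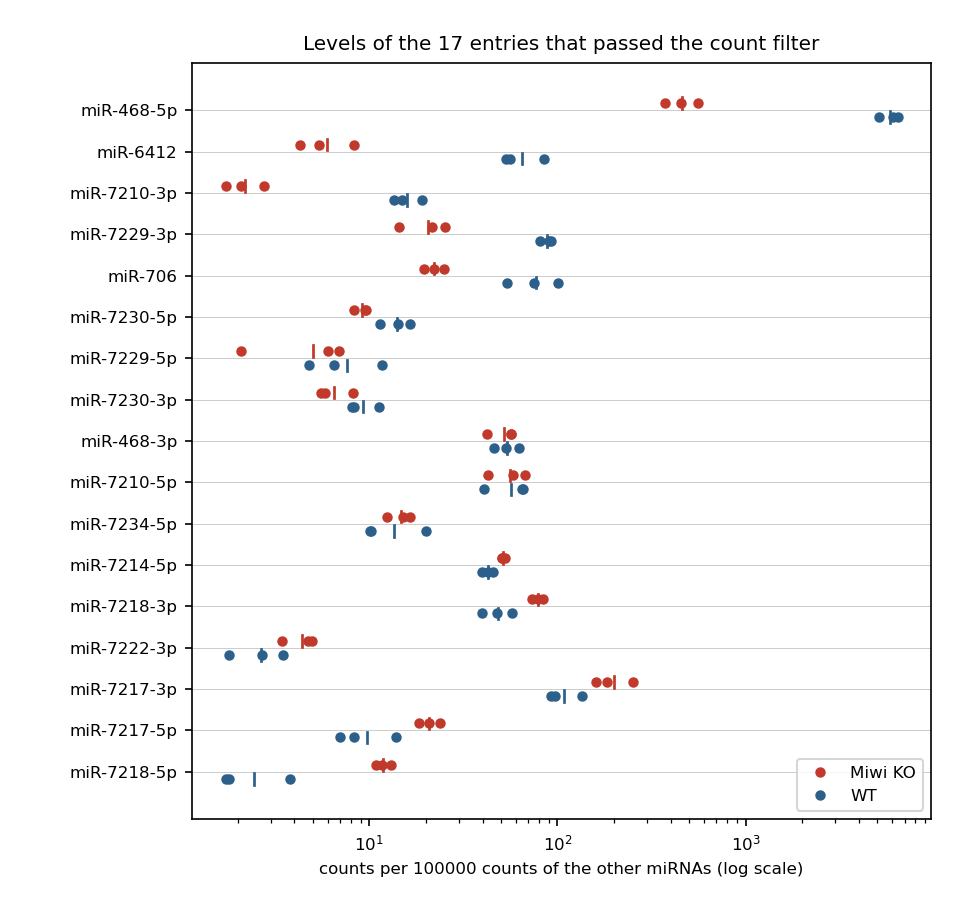
Counts per 100000 counts of the other miRNAs (horizontal, log scale) for the 17 entries that passed the count filter, ordered by the ratio of KO to WT; points are libraries, Miwi KO above WT, and the short lines are means. miR-468-5p, at 373 to 560 in KO and 5142 to 6431 in WT, lies far to the right of the other members.

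The remaining 9 entries did not pass the filter. They held between 1 and 39 counts over all 6 libraries, and their levels overlapped between the genotypes. Over all 26 members, 6 had KO levels wholly below WT, 5 wholly above and 15 overlapped. Among the 24682 tested entries of the small RNA table, most of which are piRNAs, 78.0% had KO levels wholly below WT and 6.22% wholly above. Since these same levels chose the set, nothing is read from these counts.

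In edgeR's quasi-likelihood fit of the whole small RNA table, scaled to the other miRNAs, 74.2% of all tested entries passed an adjusted p of 0.05 as lower in KO and 7.10% as higher. The same counts chose the members, so their log2 changes are given as a description. For the members listed by name they were -3.47 ± 0.23 (SE) for miR-468-5p, -3.27 ± 0.31 for miR-6412, -2.69 ± 0.43 for miR-7210-3p, -1.87 ± 0.24 for miR-7229-3p and -1.60 ± 0.25 for miR-706. Among the 331 other miRNAs tested, 21 were called lower and 30 higher, with a median log2 change of 0.01. The other miRNAs with the lowest changes, just outside the set, were miR-181d-5p at -1.32, miR-451a at -1.12, miR-324-3p at -0.95, miR-34a-3p at -0.92 and miR-708-5p at -0.91. At the other end of the set, miR-7218-5p had 2.45 ± 0.43.

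The scaling decides the sign of several members. The TMM factors of the whole table, most of whose counts are piRNAs, moved the median log2 change of all tested entries to -0.21, against -2.02 with the scaling to the other miRNAs. With the whole table, 34.9% of all entries were called higher in KO and 41.3% lower, and 326 of the 331 other miRNAs were called higher. On this scale miR-468-5p stood at -1.67 ± 0.18 and miR-6412 at -1.50 ± 0.30. miR-706 stood at 0.22 ± 0.20, miR-7229-3p at -0.06 ± 0.20 and miR-7210-3p at -0.89 ± 0.43, so miR-706 changed sign, as did miR-7229-5p, miR-7230-3p and miR-7230-5p. All 5 members that lay above WT per other miRNA counts were above it on this scale as well.

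Annotated piRNAs of the same table, scaled to the other miRNAs, had a median log2 change of -2.50 for those of 29-32 nt (17938 tested) and of -0.86 for those of 25-28 nt (5361 tested). miR-468-5p, miR-6412 and miR-7210-3p lay below the median of the 29-32 nt piRNAs, and miR-7229-3p and miR-706 between the medians of these groups.

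**Figure D2:**
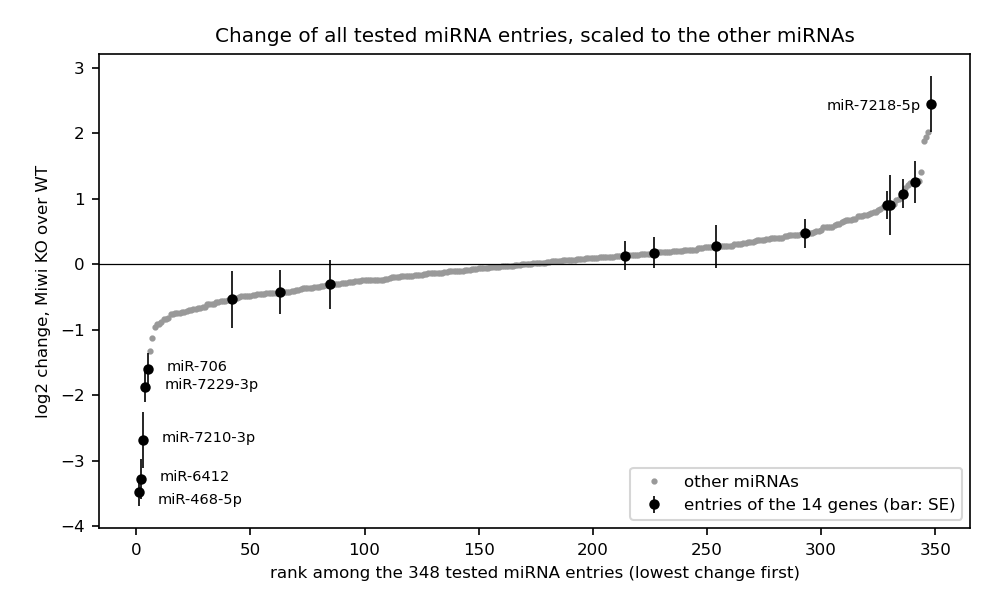
Log2 change in Miwi KO over WT from edgeR, scaled to the other miRNAs, for the 348 tested miRNA entries in order of change; grey points are other miRNAs and black points the 17 members with their SE. The 5 members listed by name take the lowest places, from -3.47 to -1.60, and miR-7218-5p is at 2.45.

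The piRNA table, a separate count of 2217610 entries with reads out of 9924085, gives the RNAs of 773 clusters, the 7 named above among them, by position and length. Lengths of 29-32 nt are those usual for MIWI and lengths of 25-28 nt those usual for MILI. At the 12 hairpins in clusters, entries of 29-32 nt summed to 462 ± 79.6 per 100000 other miRNA counts in KO and 6697 ± 733 in WT, 14.5-fold lower in KO. Entries of 25-28 nt at the same hairpins summed to 683 ± 53.7 in KO and 539 ± 81.7 in WT, 1.27 times the WT mean. Without Mir468, the 29-32 nt entries were 7.87-fold lower in KO and the 25-28 nt entries 1.36 times the WT mean.

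The hairpins of Mir468 and Mir7210 are shown with the mature arms that RefSeq gives in capitals, since most of the counts at each begin at a single base.
Mir468 hairpin: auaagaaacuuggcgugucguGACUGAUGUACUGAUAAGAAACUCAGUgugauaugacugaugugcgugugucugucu
Mir7210 hairpin: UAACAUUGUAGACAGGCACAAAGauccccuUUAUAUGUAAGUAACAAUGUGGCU
At Mir468, base 22 of the hairpin, a G and the first base of miR-468-5p, was the 5′ end of 75.9% of the counts that began in the hairpin, wherever they ended, in KO and of 95.5% in WT. At Mir7210, base 1, a U and the first base of miR-7210-5p, was the 5′ end of 73.9% in KO and 77.4% in WT.

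Entries of 29-32 nt at Mir468 had 776, 396 and 1008 counts in KO, against 10559, 9361 and 13642 in WT, and their level was 342 ± 73.2 in KO and 5752 ± 634 in WT, 16.8-fold lower in KO. Entries of 25-28 nt there had 183 ± 11.4 in KO and 173 ± 27.4 in WT, which overlap. At Mir7210 the 29-32 nt entries had 52.9 ± 2.65 in KO and 602 ± 62.2 in WT, 11.4-fold lower in KO, and the 25-28 nt entries 37.6 ± 12.4 in KO and 27.1 ± 11.3 in WT. Entries of 18-24 nt had 38.1 ± 4.14 in KO and 83.7 ± 13.9 in WT at Mir468, 2.19-fold lower in KO, and 2.41 ± 0.909 in KO and 10.5 ± 3.32 in WT at Mir7210, 4.35-fold lower in KO. The most counted length at Mir7210 was 30 nt in KO, with a level of 22.7, and 32 nt in WT, with 253.

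**Figure D3:**
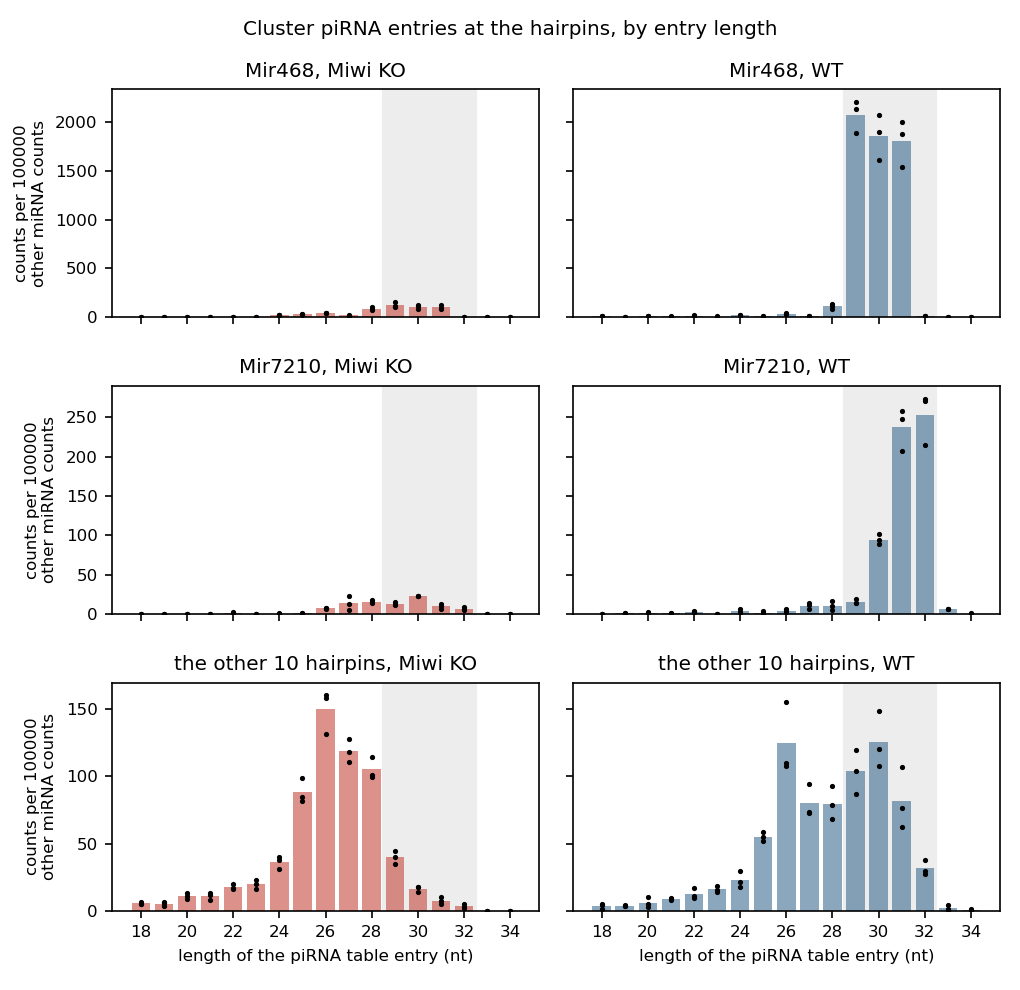
Mean level of piRNA table entries by entry length (nt, horizontal) in counts per 100000 other miRNA counts (vertical, a separate scale for each row) at Mir468, at Mir7210 and at the other 10 hairpins, with Miwi KO on the left and WT on the right; points are libraries and the shaded band is 29-32 nt. At the other 10 hairpins the highest bar is at 26 nt in KO, with 150, and at 30 nt in WT.

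The length of an entry is not always the length of the read. At the start of miR-468-5p, entries of 31, 30 and 29 nt with the same 5′ end had 241, 239 and 227 counts in KO, against 9414, 9369 and 9336 in WT. A second group with that 5′ end, of 28, 29, 30 and 31 nt, had 423, 396, 408 and 406 counts in KO, against 267, 220, 246 and 217 in WT. Counts this close at 3 or 4 nested lengths mean that the length of an entry cannot be taken as the length of its reads at this hairpin. When each place was given only its highest entry, the 29-32 nt share over all hairpins was 23.8% in KO and 92.7% in WT.

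The share of 29-32 nt among the 25-32 nt counts at all 12 hairpins was 40.2% ± 2.97 in KO and 92.5% ± 0.766 in WT (SD, n = 3 each), a difference of -52.4 percentage points. Without Mir468 it was 19.4% ± 0.244 in KO and 72.1% ± 1.45 in WT, and over all cluster entries it was 22.1% ± 1.11 in KO and 80.7% ± 0.581 in WT. Mir468, at 64.7% ± 3.45 in KO and 97.1% ± 0.261 in WT, and Mir7210, at 59.2% ± 7.05 in KO and 95.8% ± 1.40 in WT, had higher shares than the other 10 hairpins. At Mir468 many KO counts lie in nested entries on both sides of the class boundary, so its KO share is uncertain. Mir7214 had 4.44% ± 2.30 in KO and 29.1% ± 4.83 in WT. In each of the 12 hairpins the KO libraries lay below the WT libraries. They did so over all cluster entries as well, so this is not particular to the hairpins. Mir7216, Mir7229 and Mir7233 rest on only 7 to 27 KO counts per library. These shares count entries that lie whole within a hairpin, and some long entries of 3′ arms run past its end. Among all entries that began in the hairpins the share was 37.6% ± 2.76 in KO and 89.9% ± 0.883 in WT, and without Mir468 24.7% ± 1.24 in KO and 71.4% ± 0.858 in WT. At Mir7229 it became 45.5% ± 6.86 in KO and 79.6% ± 2.34 in WT, and at Mir7230 13.8% ± 0.979 in KO and 64.5% ± 4.10 in WT. At Mir7214 it became 11.3% ± 0.267 in KO and 50.8% ± 2.13 in WT. Mir7217 went from 15.3% in KO and 40.5% in WT to 38.0% ± 1.84 in KO and 49.4% ± 5.56 in WT, a smaller gap.

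Other miRNA genes also lie within clusters of the same table, and some of their hairpins were measured in the same way. The hairpins of Mir7215, Mir7223 and Mir7232, where KO counts were also below WT counts, are not among those given here. The share of 29-32 nt entries was 0% in every library at Mir17, Mir19a, Mir19b-1, Mir26a-2 and Mir92-1. The upper bound of that share (exact 95% binomial interval, counting error only) was at most 0.223% in any library at Mir19b-1, 1.32% at Mir19a and 5.28% at the other 3. It was 0.103% ± 0.0953 in KO and 0.120% ± 0.105 in WT at Mir20a, and at Mir18 it was 0.269% ± 0.107 in KO and 3.13% ± 0.398 in WT. It was 0.184% ± 0.319 in KO and 0.417% ± 0.361 in WT at Mir301, and 0.513% ± 0.888 in KO and 0.407% ± 0.704 in WT at Mir7-1. At Mir700 it was 0% from 2 to 14 counts per library. Mir6240 stood apart from the others given here, with 29.6% ± 8.52 in KO and 51.3% ± 4.63 in WT from 21 to 72 counts per library.

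**Figure D4:**
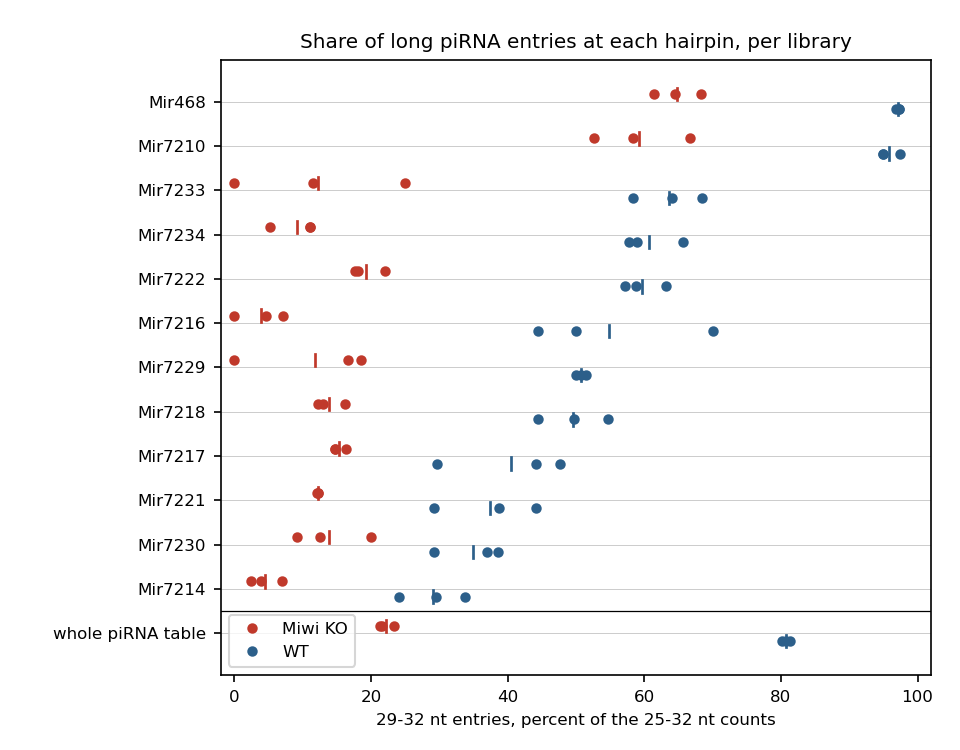
Entries of 29-32 nt in percent of the 25-32 nt counts (horizontal) at each of the 12 hairpins and over the whole piRNA table; points are libraries, Miwi KO above WT, and the short lines are means. The KO points lie to the left of the WT points in each row, from 64.7% in KO and 97.1% in WT at Mir468 to 4.44% in KO and 29.1% in WT at Mir7214. Hairpin rows count only entries that lie whole within the hairpin.

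The piRNA entries that begin within 1 nt of a mature 5′ end show what each miRNA entry shares with the cluster. At miR-468-5p these entries had 1028, 524 and 1324 counts in KO, against 10750, 9496 and 13955 in WT, within a few percent of the mature entry's own counts in each library. At miR-7229-3p they had 123 counts over the KO libraries and 548 over the WT libraries, and the mature entry 132 over the KO and 517 over the WT libraries. At miR-7218-5p they had 28, 19 and 27 in KO and 4, 6 and 4 in WT, and the mature entry 27, 19 and 26 in KO and 3, 7 and 4 in WT. Other members differed. At miR-7217-5p the piRNA entries held 15 counts in KO and 12 in WT, and the mature entry 129 in KO and 59 in WT. At miR-7229-5p they held 60 in KO and 103 in WT, and the mature entry 29 in KO and 47 in WT. At miR-7230-3p they held 74 in KO and 125 in WT, and the mature entry 41 in KO and 55 in WT.

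At miR-7210-5p the piRNA entries had 217, 100 and 197 counts in KO, against 1116, 995 and 1517 in WT, 7.62-fold lower in KO, whereas the mature entry had 157, 62 and 140 in KO and 109, 75 and 151 in WT. In KO the piRNA entries there held 1.43 times the counts of the mature entry, and in WT 10.8 times. Those of 29-32 nt had 293 counts over the KO and 3395 over the WT libraries. Those of 25-28 nt had a level of 32.8 ± 10.9 in KO and 24.2 ± 9.29 in WT. The mature entry alone therefore did not show the lower KO level of RNAs that begin at the same base.

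At 10 mature starts with at least 20 counts of 25-32 nt in each genotype, the pooled share of 29-32 nt was lower in KO at all 10. The mean share over all cluster entries was lower too, at 22.1% in KO and 80.7% in WT. A lower KO share is therefore not particular to these starts. The pooled share was 76.8% in KO and 97.6% in WT at miR-468-5p and 78.0% in KO and 93.8% in WT at miR-7229-3p. At miR-7210-5p it was 58.0% in KO and 96.0% in WT. The KO value at miR-468-5p is uncertain, since entry length there cannot be taken as read length. At miR-7218-3p and miR-7217-3p, whose levels were higher in KO, it was 14.5% and 40.2% in KO and 32.2% and 53.0% in WT. At miR-7217-3p the 25-28 nt entries held 502 counts in KO and 220 in WT, and the 29-32 nt entries 337 in KO and 248 in WT. At miR-7218-5p, with too few WT counts for this comparison, the 29-32 nt entries held 0 counts in KO and 1 in WT, and the 25-28 nt entries 45 in KO and 10 in WT. The mature entry and the piRNA entries at its start count many of the same reads, so these values are not independent of each other.

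**Figure D5:**
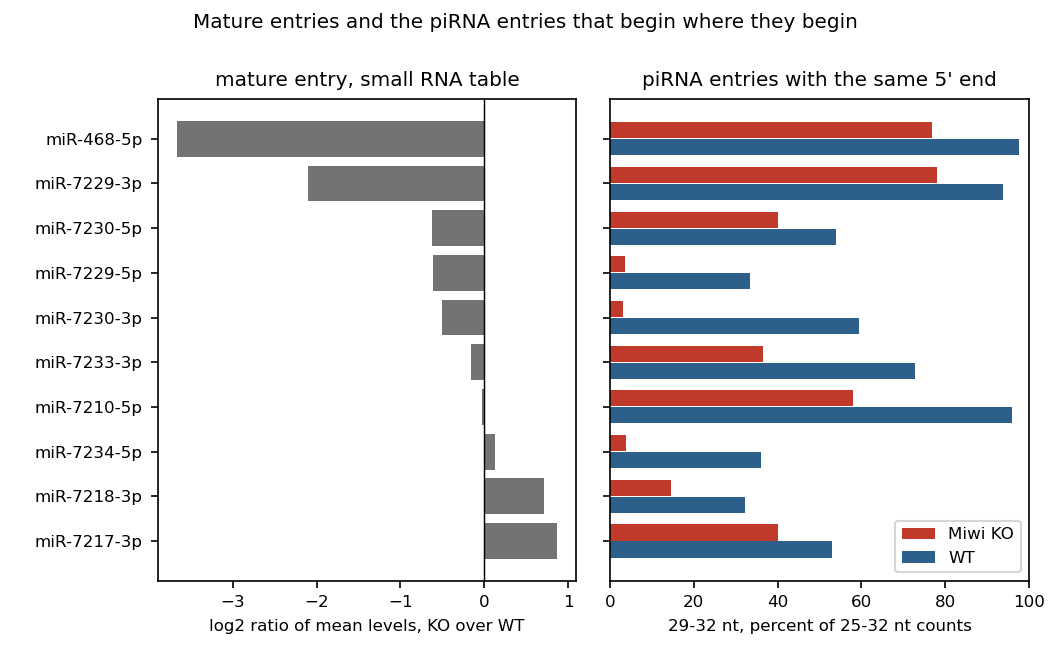
Left, log2 ratio of the mean levels of the mature entry in Miwi KO over WT in the small RNA table; right, the percent of 29-32 nt among the 25-32 nt counts of piRNA entries that begin within 1 nt of the same 5′ end, Miwi KO above WT, pooled over 3 libraries. miR-468-5p and miR-7229-3p, at the top, have WT shares of 97.6% and 93.8%, and miR-7210-5p has a WT share of 96.0% with a ratio near 0.

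Among the entries that began in a hairpin, wherever they ended, the leading 5′ end was the same base in both genotypes at 8 of the 12 hairpins. Besides Mir468 and Mir7210 it was the start of a mature arm at Mir7229, Mir7217 and Mir7233. At Mir7229 it was base 30, the start of miR-7229-3p, with 43.9% of the counts in KO and 61.5% in WT. At Mir7217 it was base 41, the start of miR-7217-3p, with 37.0% in KO and 41.8% in WT. At Mir7233 it was base 39, the start of miR-7233-3p, with 62 of 194 counts in KO and 105 of 647 in WT. The other 3 led at a base where no mature arm starts in RefSeq. These were base 25 of Mir7221, with 52.2% in KO and 51.1% in WT, base 17 of Mir7222, with 50.6% in KO and 42.1% in WT, and base 23 of Mir7234, with 48.0% in KO and 56.3% in WT. All of these leading bases but that of Mir468 are U. The leading base differed between the genotypes at Mir7214, Mir7216, Mir7218 and Mir7230.

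Over the 11 hairpins other than Mir468, U was the first base of 91.6% ± 5.29 of the 29-32 nt counts in KO and 94.5% ± 1.14 in WT. For 25-28 nt it was 82.3% ± 1.77 in KO and 83.2% ± 1.62 in WT. U makes up 26.8% of the 758 bases of the 12 hairpins. A at base 10 was found in 60.6% ± 1.59 of the 29-32 nt counts in KO and 79.8% ± 2.12 in WT, against 23.7% A among the hairpin bases. Mir7210 alone held 329 of the 752 counts of 29-32 nt in KO and 3526 of 5561 in WT. Without it as well, A at base 10 was found in 32.5% ± 6.26 of the 29-32 nt counts in KO and 46.0% ± 1.68 in WT, and U at the first base in 87.2% ± 7.39 in KO and 86.3% ± 1.71 in WT. Mir468 departed from the first base U, since its leading RNA begins with G and has A at base 10.

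The clusters that hold the hairpins had lower KO levels of 29-32 nt entries throughout, by 5.08-fold in the chromosome 17 cluster with Mir7214, Mir7216, Mir7217 and Mir7218 and by 16.6-fold in the chromosome 6 cluster with Mir7233. The Mir468 hairpin took 8.17% of the counts of its cluster in KO and 20.9% in WT, within 18178 bases of cluster. The Mir7210 hairpin took 0.381% in KO and 0.800% in WT. Entries of 25-28 nt in the chromosome 17 cluster were 1.70 times higher in KO, and in the other 6 clusters between 1.01 and 1.22 times the WT mean.

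Likeness to the summed level of the members was measured as Pearson's r over the 6 libraries on log2 levels. Among 10102 other small RNAs the highest values were those of the piRNA entries 3922-2 (31 nt), 28106-1 (30 nt) and 6031-1 (32 nt), each at 0.9996 or above. A value over 0.99 was reached by 2419 of these RNAs. The summed level is mostly miR-468-5p in WT, and that entry was chosen for its low KO level. Entry 6031-1 had 140, 64 and 187 counts in KO, against 2506, 2043 and 3658 in WT. Among 180 other miRNAs the highest were miR-140-3p at 0.986, miR-103-3p at 0.981 and miR-148a-3p at 0.977, but their KO means were 0.678, 0.725 and 0.737 of the WT means. With 2 groups of 3 libraries set apart by genotype, r mostly follows the order of the groups, and all points share the other-miRNA total as divisor.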

How the data were processed

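Small RNA of round spermatids was sequenced from 3 Miwi KO and 3 WT libraries, grouped by their genotype labels. The authors deposited 2 tables of raw read counts per reference sequence, made with featureCounts 1.5.0-p2 per the file headers; cutadapt, DESeq2 and build mm9 are named in the submitters' processing notes. How reads with several matches were treated, and by which aligner, is not stated there. Positions in the piRNA table match GRCm38 miRNA genes and were annotated with GENCODE M21. Entry length is the indexed length minus 20 nt. Levels are counts per 100000 counts of all other miRNAs. The whole small RNA table was fitted with the quasi-likelihood test of edgeR 4.0.16 (R 4.3.3), after filterByExpr (min.count 10, min.total.count 15), with TMM factors, Benjamini-Hochberg adjustment and a threshold of 0.05, with DESeq2 1.42.0 as an alternative. The edgeR step was tested on simulated counts. Python 3.11.15 was used elsewhere. Entries at a hairpin are those lying whole within it on either strand; entries that begin in a hairpin are those of its own strand. Members and lists were chosen with earlier results of these data known. The text names the 5 listed members, every other member that passed the filter, the 5 miRNAs just outside, and the RNAs most like the sum. Replicate numbers were not treated as pairs. Binomial intervals cover counting error only.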

Additional observations from a re-analysis of the deposited data

How the results depend on the processing

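The log2 ratio of the members' summed level was -2.66. It was -0.83 per total of the small RNA table, -0.61 per annotated piRNA counts and -0.14 without miR-468-5p. It ranged from -2.76 to -2.57 when each library was left out. Numbers of members past the threshold describe the set and do not test it. With whole-table factors 2 of the 17 tested members were lower and 12 higher, against 41.3% and 34.9% of all tested entries. On that scale 326 of the 331 other miRNAs were higher as well. The numbers became 5 and 5 with the factors of the other miRNAs, against 74.2% lower and 7.10% higher among all tested entries. With whole-table factors they ranged from 2 to 3 and from 11 to 13 with a library left out. They were 2 and 12 without both replicate 3 libraries, where the summed ratio was -2.73 and the hairpin difference -54.5 points. With the other-miRNA factors, log2 changes reversed to -1.60 for miR-706, -0.53 for miR-7229-5p, -0.31 for miR-7230-3p and -0.43 for miR-7230-5p. With whole-table factors the change of miR-7229-3p, -0.06, ranged from -0.29 without KO replicate 3 to 0.074 without KO replicate 2. The hairpin difference of -52.4 points was -36.8 with a long class of 28-32 nt and -52.4 with all entries that begin in a hairpin. It was -68.8 with 1 entry kept for each position, strand and length. With a library left out it ranged from -54.1 to -51.3. Same-numbered libraries correlated at 0.03, 0.10 and 0.14, which gave no ground for pairing. With the replicate number as a block the summed ratio was -2.67 and the numbers were 2 and 12. The alternatives without both replicate 3 libraries, without the Mir468 hairpin and with all entries that begin in a hairpin were chosen after seeing the data. The cause of these shifts was not tested. Counts below 50 in KO limit miR-6412, miR-7210-3p, miR-7222-3p, miR-7229-5p, miR-7230-3p and several hairpins.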

Other observations

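A few miRNA entries outside the set also lie in piRNA clusters or had low KO levels. miR-7223-5p had 4, 4 and 2 counts in KO, against 13, 12 and 22 in WT, a level of 1.77 ± 0.963 per 100000 other miRNA counts in KO and 7.92 ± 1.55 in WT. miR-7232-5p had 4.95 ± 1.31 in KO and 9.39 ± 1.37 in WT. miR-1957b had 5, 3 and 9 counts in KO, against 16, 14 and 20 in WT. These entries were picked after their values were seen.

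At the Mir7232 hairpin, which lies in the same cluster as Mir468, cluster entries had 38, 16 and 39 counts in KO, against 121 to 181 in WT. At Mir7223 they had 17, 10 and 8 counts in KO, against 71, 88 and 130 in WT, and at Mir7215 they had 11, 2 and 8 in KO and 23, 23 and 35 in WT. All KO libraries lay below all WT libraries at these 3 hairpins in raw counts. The piRNA totals separated in the same way, from 1009902 to 1785660 in KO and from 4059156 to 6623310 in WT. Nothing is therefore read from the separation at these 3 hairpins.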
